A study of Mus musculus with 62 samples.

Results

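The response of gastrocnemius (GC) muscle to hypoxia was described in mice that lack ChREBP in muscle. The comparison holds 8 libraries of the 62 in the series, 4 from normoxic mice (Norm_ChMKO) and 4 from hypoxic mice (Hypo_ChMKO), chosen by the genotype and treatment in the labels and by no measured value. ChMKO mice carry a ChREBP gene (Mlxipl) with loxP sites around 1 of its exons together with Mck-cre, so that Cre is made under the creatine kinase promoter of skeletal and heart muscle fibers, and other cells of the muscle keep the gene. Hypoxic mice were kept for 2 weeks in a chamber simulating an altitude of about 5500 m at 46 to 49 kPa, normoxic mice were not, and all were males aged 8 to 10 weeks. F/F mice, which carry the floxed gene without Cre, gave 4 normoxic and 4 hypoxic libraries of the same table and serve here only to show where the ChMKO response differed. Each library carries its own number, read here as 1 mouse, and p-values measure the spread between these libraries. Values below are always given in the order of mice N_KO_370, N_KO_374, N_KO_375 and N_KO_380 (normoxia) and H_KOc332, H_KOc333, H_KOc340 and H_KOc345 (hypoxia).

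ChREBP is a transcription factor of the Mondo family that, with its partner Mlx, turns on glycolytic and lipogenic genes when sugar is plentiful. Low oxygen is sensed by prolyl hydroxylases and the von Hippel-Lindau protein, which keep the hypoxia-inducible factors (HIF) unstable while oxygen is available. Skeletal muscle is built of slow-twitch fibers, which are rich in mitochondria, and fast-twitch fibers, which rely more on glycolysis, and the mouse GC consists mostly of the latter. Muscle also has a circadian clock, in which Arntl (Bmal1) and Clock drive the Per, Cry and Nr1d genes, whose products repress them in turn.

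The 8 libraries held 14473170 to 18581343 reads assigned to genes, and within a group they correlated across genes with r of 0.980 to 0.992. The unit is FPKM, in which fragments are divided by the length of the gene and by the total of the library. The 10 most abundant genes took 35.4% to 43.1% of each library's FPKM, and the fast myosin Myh4 stood at 8520.0, 7754, 8681 and 7952 FPKM in normoxia and 12075, 9951, 8813 and 7198 in hypoxia. Mlxipl, the targeted gene, was between 2.38 and 3.51 FPKM in the 8 ChMKO libraries and between 7.76 and 10.01 FPKM in the 8 F/F libraries, so the ranges did not overlap. The Mlxipl value counts all reads of the gene, including those of exons left in place and of cells without Cre.

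Transcripts of liver differed between libraries and were set apart from the results. The summed level of 33 liver genes was 159, 106, 205 and 1232 FPKM in normoxia and 48.8, 48.9, 97.9 and 19.0 FPKM in hypoxia. Albumin (Alb) was 19.9, 15.2, 28.7 and 181 FPKM in normoxia and 4.07, 0.439, 7.84 and 0.184 in hypoxia, Mup3 was 7.36, 8.25, 16.5 and 106 FPKM in normoxia and 1.07, 0.128, 3.36 and 0.0504 in hypoxia, and Apoa2 was 3.68, 5.08, 13.6 and 77.2 FPKM in normoxia and 0.748, 0, 5.64 and 0.200 in hypoxia. The sum was higher in every normoxic ChMKO library than in any hypoxic one and highest in N_KO_380, although Apoa2 in H_KOc340 lay above N_KO_370 and N_KO_374. The summed level in F/F libraries ranged from 19.2 to 269 FPKM in normoxia and from 29.9 to 220 FPKM in hypoxia. Between 0 and 1 of the 33 genes were at 0 in each normoxic ChMKO library, and between 0 and 20 in each hypoxic one. Of the 31 liver genes tested, 29 were lower with an unadjusted p under 0.05 (9.42% of all tested genes were). Their median log2 fold change was -1.74 (-3.73 with a pseudocount of 0.1). Mup7, a urinary protein made by liver, fell past the adjusted p, as did 0.637% of all tested genes (log2 fold change -4.65 ± 0.71 (SE), adjusted p = 0.0268). These genes are treated as carried over from another tissue and are not counted as a muscle response. The groups also separated on the first principal component described below without the 31 liver genes, and the part of these transcripts in the results for single genes was not tested.

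**Figure D1:**
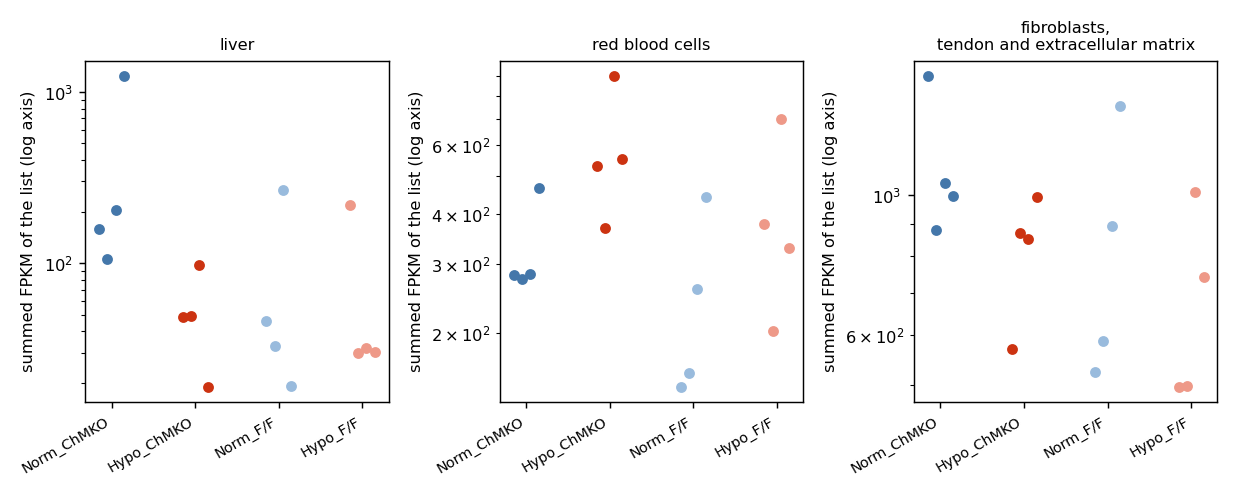
Summed FPKM (log axis) of the marker lists for liver, red blood cells, and fibroblasts, tendon and extracellular matrix in each library of the 4 groups, each point being 1 library. The liver sum of the 4 normoxic ChMKO libraries lies between 106 and 1232 FPKM, above the 19.0 to 97.9 FPKM of the hypoxic ones.

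To ask what hypoxia changed in ChREBP-deficient GC, 10676 genes that averaged 0.5 FPKM or more over the 8 libraries were compared by limma on log2(FPKM + 1). After Benjamini-Hochberg adjustment 27 genes were higher (0.253% of those tested) and 68 were lower (0.637%). The groups did not overlap for any of these 95 genes, while over all tested genes 346 (3.24%) lay wholly higher and 701 (6.57%) wholly lower in hypoxia. At an unadjusted p under 0.05, 607 genes (5.69%) were higher and 1006 (9.42%) were lower. The study set limits of a log2 fold change of 1 or more in size and an unadjusted p below 0.05, and applied them to DESeq2. Applied here to the limma fit, they gave 27 genes (0.253%) higher and 80 (0.749%) lower, and 29 of the latter were liver genes. With another test, these are not the counts of the study itself. This total of 107 became 200 with a pseudocount of 0.1, 212 by voom and 60 for genes averaging 5 FPKM or more, and the 95 past the adjusted p became 6 with no filter on low values and 213 in a fit on 24 libraries. The number past the adjusted p changed when a mouse was left out, and each such fit also has fewer mice. It was 19, 10, 22 or 41 without normoxic mouse N_KO_370, N_KO_374, N_KO_375 or N_KO_380, and 10, 129, 24 or 104 without hypoxic mouse H_KOc332, H_KOc333, H_KOc340 or H_KOc345, and all 95 genes kept their sign in each of these fits. When the libraries were rescaled by their median ratio, 72 genes were higher and 94 lower. On log2(FPKM + 1) the first principal component held 36.6% of the variance and separated the groups, from -24.4 to -7.67 in normoxia and from 8.08 to 17.2 in hypoxia (two-sided p = 0.0286 by an exact permutation test, which with 4 and 4 libraries can give no smaller p). The second held 20.0% and parted hypoxic mice H_KOc332 and H_KOc333 (both -15.1) from mice H_KOc340 and H_KOc345 (15.7 and 12.2). Without the liver genes the first component held 33.0%, N_KO_380 moved from -24.4 to -15.9 and H_KOc333 from 8.08 to 2.40, and the groups remained apart.

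Of the 95 genes, 7 passed the adjusted p whichever library was left out, and those described here come first. Among them were Ak4, which was higher, and Arntl, Col15a1, Htra4, Relt and 1700001O22Rik, which were lower. Relt is named because it belongs to these 7, a choice made after its values were seen. With no filter on low values Htra4 (adjusted p = 0.0569) and 1700001O22Rik (adjusted p = 0.0643) did not pass, while Ak4, Arntl, Col15a1 and Relt did. Ak4 (adenylate kinase 4, a nucleotide kinase of mitochondria and a known HIF target, chr4:101276474-101324192, plus strand, GRCm39) was 0.710, 0.805, 0.635 and 0.803 FPKM in normoxia and 2.31, 1.85, 2.31 and 2.11 in hypoxia. Every hypoxic library lay above every normoxic one, and the mean was 2.91 times higher (log2 fold change 0.85 ± 0.08 (SE), adjusted p = 0.00841). 1700001O22Rik, a gene of unassigned name (chr2:30684781-30693673, minus strand), was 4.67, 7.62, 5.50 and 7.91 FPKM in normoxia and 0.597, 1.77, 1.40 and 0.444 in hypoxia, and it fell furthest of the 7 (log2 fold change -1.88 ± 0.22 (SE), adjusted p = 0.00917). Htra4, a secreted serine protease, was 3.32, 3.59, 4.52 and 4.25 FPKM in normoxia and 0.955, 1.77, 1.39 and 1.19 in hypoxia (log2 fold change -1.09 ± 0.13 (SE), adjusted p = 0.00841).

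Col15a1, a collagen of basement membranes, was 12.5, 10.4, 12.6 and 10.3 FPKM in normoxia and 5.48, 4.94, 6.20 and 5.75 in hypoxia, with narrow groups that stood apart (log2 fold change -0.91 ± 0.10 (SE), adjusted p = 0.00841). Relt, a receptor of the tumor necrosis factor family, was 5.09, 5.51, 5.66 and 5.46 FPKM in normoxia and 2.08, 2.74, 2.39 and 2.87 in hypoxia (log2 fold change -0.87 ± 0.09 (SE), adjusted p = 0.00841). Its groups were narrow, 5.43 ± 0.240 in normoxia and 2.52 ± 0.356 in hypoxia (mean ± SD in FPKM, n = 4). Arntl is given with the clock genes.

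Among genes past the adjusted p, the 12 that rose most were led by Csrp3 and Ankrd2, muscle LIM protein and a stretch-responsive ankyrin repeat protein, both found at the Z-disc or in the nucleus of the fiber. Csrp3 (chr7:48480146-48497781, minus strand) was 24.4, 21.3, 41.7 and 16.7 FPKM in normoxia and 110.4, 47.6, 204 and 103 in hypoxia, 4.47 times higher on average (log2 fold change 2.02 ± 0.39 (SE), adjusted p = 0.0472). Ankrd2 (chr19:42024439-42033549, plus strand) was 61.3, 94.0, 69.7 and 89.0 FPKM in normoxia and 292.02, 171, 586 and 257 in hypoxia, 4.16 times higher (log2 fold change 1.92 ± 0.31 (SE), adjusted p = 0.0268). In both genes mouse H_KOc340 was highest and mouse H_KOc333 lowest among the hypoxic mice, and even the latter exceeded every normoxic mouse. Casq2, the calcium-binding calsequestrin of slow fibers and heart, was 8.78, 13.8, 9.85 and 10.8 FPKM in normoxia and 28.2, 17.4, 34.6 and 51.1 in hypoxia (log2 fold change 1.44 ± 0.27 (SE), adjusted p = 0.0415). The starts of Csrp3 and Ankrd2, which rose most, are shown (RefSeq, GRCm38.p6, the first entry listed for each gene, 250 bases before to 50 after the transcription start, 5′ to 3′ on the strand of the gene). Csrp3 lies at chr7:48848002-48848301, minus strand, and Ankrd2 at chr19:42035777-42036076, plus strand.
Csrp3: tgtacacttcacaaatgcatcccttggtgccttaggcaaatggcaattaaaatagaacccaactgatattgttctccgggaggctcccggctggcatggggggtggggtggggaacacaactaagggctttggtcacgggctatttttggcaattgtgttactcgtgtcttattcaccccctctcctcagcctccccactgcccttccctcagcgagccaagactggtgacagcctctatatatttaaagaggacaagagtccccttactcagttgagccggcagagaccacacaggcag
Ankrd2: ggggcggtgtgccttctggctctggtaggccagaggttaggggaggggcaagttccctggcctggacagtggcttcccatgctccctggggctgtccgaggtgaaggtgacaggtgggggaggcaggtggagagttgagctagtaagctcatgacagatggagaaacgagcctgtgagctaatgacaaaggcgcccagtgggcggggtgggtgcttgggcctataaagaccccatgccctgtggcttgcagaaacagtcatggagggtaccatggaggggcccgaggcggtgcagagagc
The core letters of a hypoxia response element, ACGTG and GCGTG, were searched on both strands and would be in capitals. Neither occurs in these windows, nor in the first listed windows of 1700001O22Rik and Neto2, which fell most among genes past the adjusted p outside the liver list and were searched for the same letters. Of 27025 RefSeq windows of the same length, 19.7% hold ACGTG and 32.5% hold GCGTG, and the letters say nothing of sites elsewhere.

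The other genes that rose most include regulators of transcription and metabolism. Foxo1, a forkhead factor that drives fasting and atrophy programs, was 4.01, 5.38, 4.77 and 3.57 FPKM in normoxia and 15.1, 10.4, 16.6 and 8.11 in hypoxia (log2 fold change 1.28 ± 0.20 (SE), adjusted p = 0.0268). Ppara, the nuclear receptor of fatty acid oxidation, was 2.67, 3.22, 1.82 and 2.29 FPKM in normoxia and 4.85, 4.65, 9.46 and 6.47 in hypoxia (log2 fold change 1.04 ± 0.20 (SE), adjusted p = 0.0425), and Sesn1, a stress-induced inhibitor of mTORC1, was 5.37, 7.16, 6.96 and 5.19 FPKM in normoxia and 14.7, 10.1, 16.8 and 10.3 in hypoxia (log2 fold change 0.94 ± 0.17 (SE), adjusted p = 0.0391). Each of these regulators was between 2 and 3 times higher on average, by ratios of means of 2.83, 2.54 and 2.101. Slc43a1, a transporter of large neutral amino acids, rose from 2.51, 3.19, 3.49 and 2.71 to 9.15, 4.39, 8.60 and 7.22 FPKM (log2 fold change 1.04, adjusted p = 0.0391), and Rbp7, a retinoid-binding protein, from 2.91, 2.82, 2.82 and 2.98 to 5.43, 6.50, 7.40 and 3.82 FPKM (log2 fold change 0.78, adjusted p = 0.0476). Galnt15, a glycosyltransferase, had a log2 fold change of 1.15, adjusted p = 0.0268. Cep85l, a centrosomal protein, had one of 1.13, adjusted p = 0.0472, and its normoxic value in mouse N_KO_380, 1.89 FPKM, lay apart from the 3.85 to 4.29 FPKM of the other 3. Per1 is given with the clock genes.

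Among the 12 that fell most past the adjusted p were regulators of transcription. Six2, a homeobox factor, was 5.63, 6.22, 8.41 and 4.83 FPKM in normoxia and 2.71, 1.72, 1.81 and 2.21 in hypoxia (log2 fold change -1.21 ± 0.15 (SE), adjusted p = 0.0149), and Hoxa11, a limb patterning factor, was 2.16, 2.91, 2.48 and 2.45 FPKM in normoxia and 0.301, 0.720, 0.784 and 1.18 in hypoxia (log2 fold change -1.02 ± 0.14 (SE), adjusted p = 0.0237). Hr, a nuclear corepressor, was 16.9, 17.8, 14.3 and 14.9 FPKM in normoxia and 6.40, 8.11, 8.25 and 3.44 in hypoxia (log2 fold change -1.22 ± 0.21 (SE), adjusted p = 0.0349). These groups stood well apart, the highest hypoxic library of each being below the lowest normoxic one. Foxo6, a forkhead factor, fell from 1.88 ± 0.556 to 0.434 ± 0.111 FPKM (mean ± SD, n = 4; log2 fold change -0.99, adjusted p = 0.0174), while its relative Foxo1 was higher. Klf10, an early factor downstream of TGF-β, was 11.8, 19.9, 10.9 and 11.6 FPKM in normoxia and 6.60, 4.73, 5.69 and 5.04 in hypoxia (log2 fold change -1.13 ± 0.17 (SE), adjusted p = 0.0268).

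The other genes that fell most have roles in signaling, transport and RNA. Igfbp5, a secreted binder of insulin-like growth factors and the most abundant of the 12, was 239, 165, 266 and 193 FPKM in normoxia and 104, 116, 121 and 69.6 in hypoxia (log2 fold change -1.07 ± 0.19 (SE), adjusted p = 0.0404). Arrdc3, an arrestin-like adaptor related to Txnip, was 25.8, 34.2, 42.97 and 25.8 FPKM in normoxia and 12.4, 16.5, 9.68 and 18.6 in hypoxia (log2 fold change -1.13 ± 0.21 (SE), adjusted p = 0.0425). Slc25a30, a carrier of the inner mitochondrial membrane, had a log2 fold change of -1.17, adjusted p = 0.0268. Neto2, an auxiliary subunit of kainate receptors, had one of -1.28, adjusted p = 0.0404, and Cpeb1, which controls the poly(A) tails of mRNA, one of -1.11, adjusted p = 0.0268.

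**Figure D2:**
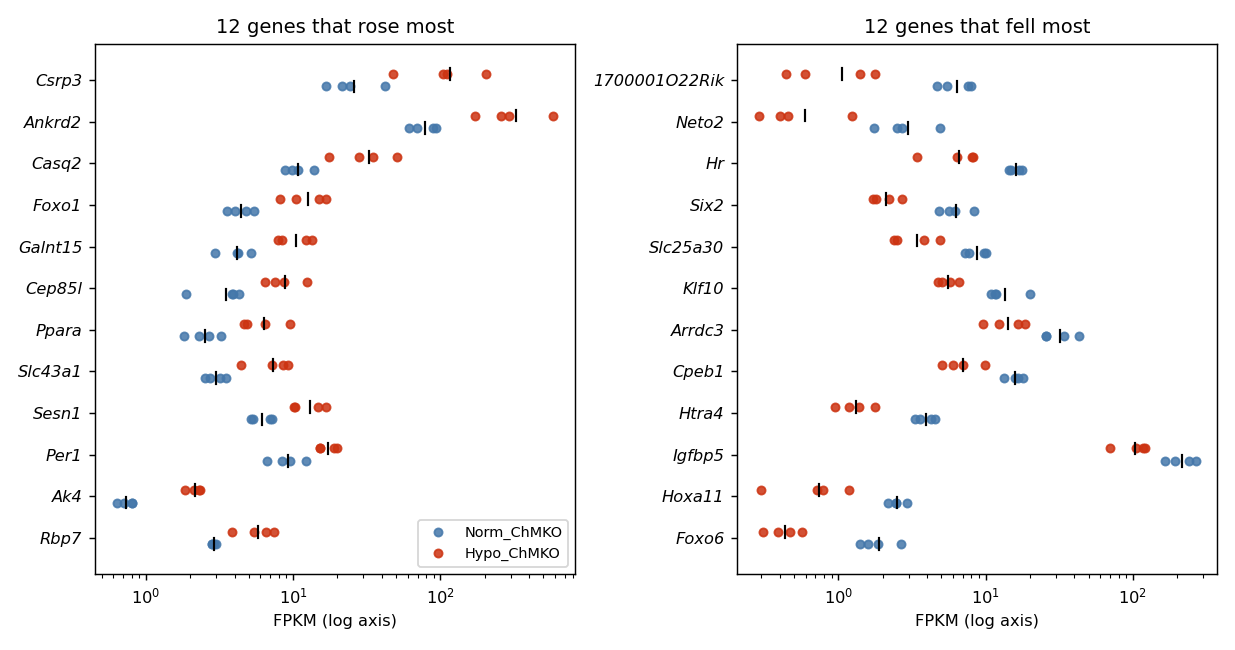
FPKM (log axis) of the 12 leading genes in either direction among those past the adjusted p, liver genes left out, with 1 point per library and a black bar at each group mean. Normoxic and hypoxic points of a gene do not overlap, and the normoxic points of Rbp7 lie between 2.82 and 2.98 FPKM.

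To see whether the fiber program moved, slow-twitch and fast-twitch sarcomere genes were compared. Of 13 slow-twitch genes tested, 12 had a positive log2 fold change, as did 4455 of all 10676 tested genes. Of the 13, 10 had an unadjusted p under 0.05 in that direction (5.69% of all tested genes did). The 2 past the adjusted p were Csrp3 and Casq2 (0.253% of all tested genes were higher). The median log2 fold change of the 13 was 1.44, beside -0.03 over all tested genes, and it ranged from 1.197 to 1.95 over the alternative settings. Myh7, the slow myosin heavy chain, was 0.459, 7.90, 0.289 and 11.5 FPKM in normoxia and 19.9, 6.36, 38.6 and 68.3 in hypoxia (log2 fold change 2.75 ± 0.84 (SE), adjusted p = 0.165), and Tnni1, slow troponin I, was 0.580, 5.63, 0.691 and 9.69 FPKM in normoxia and 15.9, 5.74, 36.7 and 50.5 in hypoxia (log2 fold change 2.55 ± 0.73 (SE), adjusted p = 0.146). Normoxic mice N_KO_370 and N_KO_375 were under 1 FPKM in both genes, while N_KO_374 and N_KO_380 were close to or above the lowest hypoxic mouse, H_KOc333, and the groups overlapped. Tnnc1 had 5.12, 44.5, 1.89 and 59.005 FPKM in normoxia and 73.2, 35.1, 146 and 248 in hypoxia (log2 fold change 2.75, adjusted p = 0.204) and Tnnt1 5.79, 31.3, 3.12 and 45.02 FPKM in normoxia and 68.3, 22.6, 115 and 197 in hypoxia (log2 fold change 2.46, adjusted p = 0.197), with the same pair of normoxic mice low and the groups again overlapping. Myh7b, a slow myosin with a mean below the minimum level, was 0.464, 0.248, 0.314 and 0.104 FPKM in normoxia and 0.406, 0.341, 0.922 and 0.990 in hypoxia and was not tested.

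Fast-twitch genes gave smaller values. None of 16 tested passed the adjusted p, 3 had an unadjusted p under 0.05, all higher (5.69% of all tested genes), and the median log2 fold change was 0.084, with 0.030 without N_KO_380 or H_KOc332 and 0.13 without N_KO_375. Mylpf, the fast regulatory light chain and the lowest p of the list, was 9043, 9622, 10094 and 9890.2 FPKM in normoxia and 15374, 11915, 13483 and 11675 in hypoxia (log2 fold change 0.43 ± 0.11 (SE), adjusted p = 0.115). The 3 adult fast myosins Myh2, Myh1 and Myh4 had log2 fold changes of 0.33, adjusted p = 0.480, 0.10, adjusted p = 0.891 and 0.19, adjusted p = 0.622. Tnni2 and Tnnt3, fast troponins, had values within 0.02 of zero, with adjusted p = 0.990 and adjusted p = 0.965, and the signs of Myh1, Tnni2 and Tnnt3 changed when single libraries were left out. Tnnc2 was listed at only 0.471 to 1.59 FPKM, on 7 to 22 reads, and gave -0.22, adjusted p = 0.476.

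**Figure D3:**
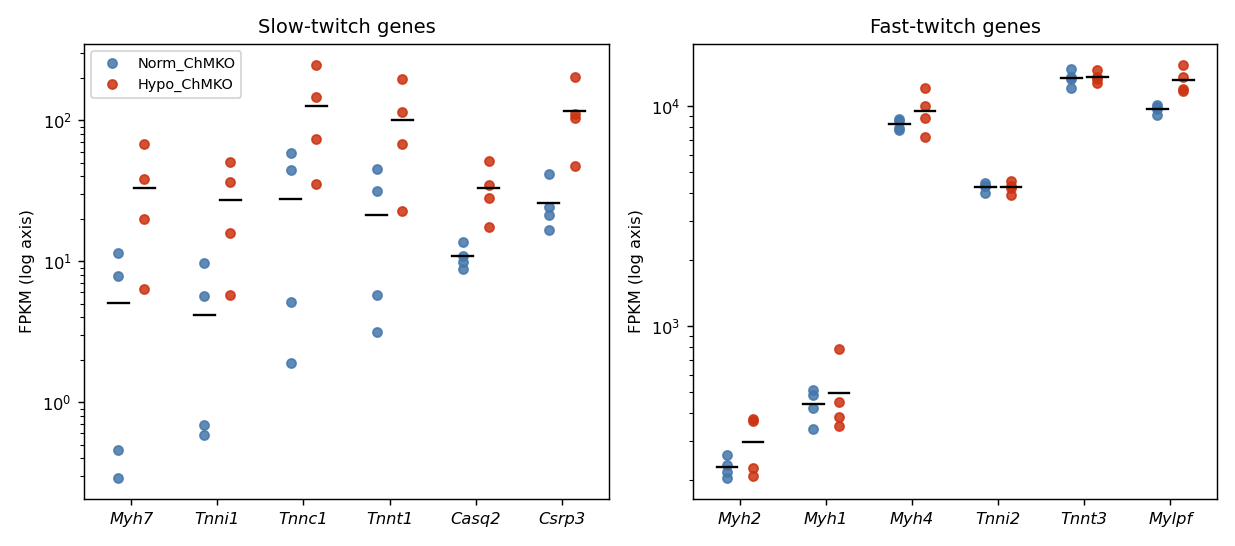
FPKM (log axis) of 6 slow-twitch and 6 fast-twitch genes, with 1 point per ChMKO library and a bar at the group mean. The normoxic points of Myh7 run from 0.289 to 11.5 FPKM and the hypoxic ones from 6.36 to 68.3 FPKM, whereas Tnni2 and Tnnt3 differ little.

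Genes of mechanical stress and the Z-disc were in part higher. Of 18 tested, 9 were higher and 1 lower at an unadjusted p under 0.05 (5.69% and 9.42% of all tested genes), and Ankrd2 and Ldb3 passed the adjusted p (0.253% of all tested genes were higher), with a list median of 0.37. Ldb3 (ZASP), a Z-disc scaffold, was 318, 316, 298 and 303 FPKM in normoxia and 417, 396, 427 and 389 in hypoxia (log2 fold change 0.40 ± 0.08 (SE), adjusted p = 0.0482). The change was small and the replicates tight, 308.8 ± 10.2 in normoxia and 407 ± 17.7 in hypoxia (mean ± SD in FPKM, n = 4). Among 21 chaperones none passed, and the lowest p was that of the small heat shock protein Hspb7, at 79.7, 92.8, 96.4 and 89.6 FPKM in normoxia and 167, 113, 293.8 and 303 in hypoxia (log2 fold change 1.17, adjusted p = 0.0836). Of 16 embryonic and denervation genes, 14 had a positive log2 fold change, as did 4455 of all 10676 tested genes, 5 were higher and none lower at an unadjusted p under 0.05 (5.69% and 9.42% of all tested genes), and none passed the adjusted p. Actc1, the cardiac actin, had the lowest p of them, with 317, 326, 157 and 189 FPKM in normoxia and 4097, 1348, 1390.1 and 298 in hypoxia (log2 fold change 2.38, adjusted p = 0.115), hypoxic mouse H_KOc345 lying below normoxic mice N_KO_370 and N_KO_374. Of 20 genes of calcium release and uptake, 7 were higher and 1 lower at an unadjusted p under 0.05 (5.69% and 9.42% of all tested genes). Casq2 alone passed the adjusted p (0.253% of all tested genes were higher).

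Of the oxygen-sensing genes 7 of 10 tested had a positive log2 fold change, and of the HIF targets 15 of 24, beside 4455 of all 10676 tested genes. None of 10 sensing genes passed the adjusted p, and 2 were higher and 1 lower at an unadjusted p under 0.05 (5.69% and 9.42% of all tested genes). The log2 fold changes of the sensing genes ran from -0.43 to 0.91, with a median of 0.055. Vhl, the ubiquitin ligase subunit that marks HIF for destruction, was 3.01, 3.47, 3.22 and 3.14 FPKM in normoxia and 1.78, 1.85, 2.52 and 2.42 in hypoxia, without overlap (log2 fold change -0.43 ± 0.10 (SE), adjusted p = 0.0849). Of 24 HIF targets tested, Ak4 was higher and Pfkfb4 lower past the adjusted p (0.253% and 0.637% of all tested genes), and 2 were higher and 4 lower at an unadjusted p under 0.05 (5.69% and 9.42% of all tested genes). The median was 0.064, and it was -0.010 without H_KOc340. Pfkfb4, which makes the glycolytic activator fructose 2,6-bisphosphate, was 13.1, 13.2, 12.9 and 12.7 FPKM in normoxia and 5.602, 9.77, 8.28 and 6.52 in hypoxia (log2 fold change -0.74 ± 0.14 (SE), adjusted p = 0.0425). Vegfa, the vascular growth factor, chosen after its values were seen as a familiar member of the list, was 36.3, 36.2, 28.1 and 33.6 FPKM in normoxia and 40.4, 43.1, 38.9 and 30.1 in hypoxia (log2 fold change 0.17, adjusted p = 0.574).

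The medians of the metabolic lists lay near that of all genes, and few members were called. None of 28 genes of glycolysis, glycogen and lactate passed the adjusted p, and 3 were higher and 3 lower at an unadjusted p under 0.05 (5.69% and 9.42% of all tested genes). Phka1, a subunit of the kinase that activates glycogen phosphorylase, had the lowest p, with 256, 262, 243 and 263 FPKM in normoxia and 167, 211, 168 and 137 in hypoxia and no overlap (log2 fold change -0.60 ± 0.12 (SE), adjusted p = 0.0556). Among 76 genes of the respiratory chain and ATP synthase, 3 were higher and none lower at an unadjusted p under 0.05 (5.69% and 9.42% of all tested genes), none passed the adjusted p, and the list ranged from -0.29 to 0.32 with a median of 0.01. The lowest p there was that of Cox7a2, a subunit of complex IV (log2 fold change 0.32, adjusted p = 0.159). Got1, an aminotransferase of the malate-aspartate shuttle, had the lowest p of 29 genes of pyruvate entry and the TCA cycle (log2 fold change 0.54, adjusted p = 0.120), and Cd36, a fatty acid transporter, that of 29 genes of fatty acid uptake and oxidation (log2 fold change 0.49, adjusted p = 0.128). At an unadjusted p under 0.05, 5 genes were higher and 1 lower in the former list and 3 higher and none lower in the latter, beside the same shares of all genes, and none passed the adjusted p. Of 19 genes of PGC-1 and the nuclear receptors, 2 were higher and 2 lower at an unadjusted p under 0.05 (5.69% and 9.42% of all tested genes), and Ppara alone passed the adjusted p (0.253% of all tested genes were higher).

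The Mondo family and its readouts held no called gene. Mlxipl itself was 3.26, 3.15, 3.51 and 3.28 FPKM in normoxia and 2.38, 2.78, 2.89 and 3.24 in hypoxia (log2 fold change -0.17, adjusted p = 0.405). Its relative Mlxip (MondoA) was 12.5, 15.7, 18.1 and 13.03 FPKM in normoxia and 13.6, 14.4, 17.1 and 13.7 in hypoxia (log2 fold change -0.0051, adjusted p = 0.992), and their partner Mlx was 5.61, 5.61, 5.47 and 4.49 FPKM in normoxia and 4.99, 3.78, 6.31 and 6.30 in hypoxia (log2 fold change -0.0060, adjusted p = 0.992). Txnip, an inhibitor of glucose uptake that both factors induce, was 171, 247, 183 and 196 FPKM in normoxia and 195, 150.3, 219.9 and 241 in hypoxia (log2 fold change 0.0083, adjusted p = 0.991). The groups overlapped in all of these, and the signs of Mlxip, Mlx and Txnip changed when single libraries were left out. Arrdc4, a sister gene of Txnip, was 6.06, 3.08, 3.26 and 3.78 FPKM in normoxia and 2.84, 2.72, 2.75 and 2.48 in hypoxia, wholly lower in hypoxia but short of the adjusted p (log2 fold change -0.41, adjusted p = 0.245). None of 15 lipogenic and ChREBP target genes passed the adjusted p, and 1 was lower at an unadjusted p under 0.05 (9.42% of all tested genes).

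The clock list held the most called genes, 6 of 17 tested. Per1 and Nr1d2 were higher and Arntl, Cry1, Nfil3 and Bhlhe41 were lower, beside 0.253% and 0.637% of all tested genes. Cry1 and Bhlhe41 lie outside the naming rule and are chosen after their values were seen, to complete the count. Arntl, the activator of the loop, was 4.93, 5.63, 5.74 and 6.66 FPKM in normoxia and 2.86, 2.56, 2.52 and 2.84 in hypoxia, with 5.74 ± 0.709 in normoxia and 2.70 ± 0.178 in hypoxia (mean ± SD, n = 4; log2 fold change -0.86 ± 0.10 (SE), adjusted p = 0.00841). Its partner Clock, also chosen after its values were seen, was 1.59, 2.07, 1.87 and 2.15 FPKM in normoxia and 1.62, 1.80, 0.887 and 1.56 in hypoxia and overlapped (log2 fold change -0.25, adjusted p = 0.397). Nfil3, a repressor that competes at D-box elements, was 57.7, 53.5, 58.4 and 57.9 FPKM in normoxia and 31.3, 33.5, 36.8 and 42.1 in hypoxia (log2 fold change -0.66 ± 0.10 (SE), adjusted p = 0.0268). Its normoxic value in mouse N_KO_374 was apart from the other 3, on the side of the hypoxic mice.

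Per1, a repressor of the loop that Arntl and Clock induce, was 6.69, 9.51, 12.2 and 8.38 FPKM in normoxia and 15.2, 15.1, 19.7 and 18.9 in hypoxia (log2 fold change 0.86 ± 0.16 (SE), adjusted p = 0.0417). Nr1d2 (REV-ERBβ), a repressor of Arntl, was 14.98, 15.7, 15.8 and 15.1 FPKM in normoxia and 27.1, 28.9, 20.8 and 23.7 in hypoxia (log2 fold change 0.66 ± 0.10 (SE), adjusted p = 0.0268). Cry1, which represses with the Per proteins, was 9.74, 8.48, 8.36 and 7.12 FPKM in normoxia and 2.71, 4.56, 4.29 and 5.54 in hypoxia (log2 fold change -0.86, adjusted p = 0.0425), and Bhlhe41 (DEC2), a repressor at E-boxes, was 8.08, 10.1, 8.82 and 9.43 FPKM in normoxia and 4.86, 6.46, 4.57 and 5.86 in hypoxia (log2 fold change -0.66, adjusted p = 0.0349). The groups were apart in each, and 7 clock genes in all were higher and 5 lower at an unadjusted p under 0.05 (5.69% and 9.42% of all tested genes). Over the alternative settings between 1 and 6 clock genes passed the adjusted p, and Arntl passed in all of those that tested it except the fit on 24 libraries.

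The starts of 4 of these genes show which clock letters they hold (RefSeq, GRCm38.p6, windows as above, first entry listed). Capitals mark an E-box, CACGTG, which reads the same on both strands, or a half-site of ROR and REV-ERB receptors, AGGTCA, on either strand (TGACCT on the other). The choice of genes and motifs was made after their values were seen. Per1 lies at chr11:69098699-69098998, plus strand, Cry1 at chr10:85185005-85185304, minus strand, Nr1d2 at chr14:18239057-18239356, minus strand, and Nfil3 at chr13:52980990-52981289, minus strand.
Per1: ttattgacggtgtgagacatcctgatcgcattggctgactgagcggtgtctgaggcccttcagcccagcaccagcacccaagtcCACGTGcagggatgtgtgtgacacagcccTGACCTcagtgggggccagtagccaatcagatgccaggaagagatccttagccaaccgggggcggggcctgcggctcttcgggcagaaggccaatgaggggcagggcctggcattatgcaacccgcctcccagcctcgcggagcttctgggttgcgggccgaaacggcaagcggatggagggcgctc
Cry1: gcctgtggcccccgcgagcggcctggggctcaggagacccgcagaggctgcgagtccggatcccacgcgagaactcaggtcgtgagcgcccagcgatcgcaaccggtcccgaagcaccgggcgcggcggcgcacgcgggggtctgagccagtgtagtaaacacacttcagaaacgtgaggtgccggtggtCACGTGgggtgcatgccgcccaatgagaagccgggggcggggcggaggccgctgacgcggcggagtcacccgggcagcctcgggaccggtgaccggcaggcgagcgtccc
Nr1d2: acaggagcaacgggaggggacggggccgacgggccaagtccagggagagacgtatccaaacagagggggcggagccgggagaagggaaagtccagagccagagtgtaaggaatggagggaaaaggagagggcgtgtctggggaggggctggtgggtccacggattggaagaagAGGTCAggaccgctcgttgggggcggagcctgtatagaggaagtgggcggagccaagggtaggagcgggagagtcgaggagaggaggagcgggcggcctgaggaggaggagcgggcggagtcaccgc
Nfil3: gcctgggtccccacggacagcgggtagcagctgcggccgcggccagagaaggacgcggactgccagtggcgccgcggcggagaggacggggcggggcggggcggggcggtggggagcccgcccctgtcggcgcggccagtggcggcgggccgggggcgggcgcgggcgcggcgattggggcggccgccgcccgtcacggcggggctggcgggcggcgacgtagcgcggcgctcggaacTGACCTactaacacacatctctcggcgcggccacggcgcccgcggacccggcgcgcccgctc
The E-box begins 166 bases before the start in Per1, which rose, and 60 bases before it in Cry1, which fell. AGGTCA letters begin 77 bases before the start in Nr1d2, which rose, and 12 before it in Nfil3, which fell, and Per1 also has them. Bhlhe41 has 1 E-box, and the window of Arntl has neither motif. The E-box occurs in 7.24% of the 27025 windows and the half-site in 16%, and the D-box letters TTANGTAA, in 2.34%, occur in none of these 6. A match is a string of letters and was not tested for binding.

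The clock genes of F/F mice differed among the normoxic mice themselves. Arntl was 1.57, 1.99, 5.54 and 4.24 FPKM in normoxic F/F mice N_WTc397, N_WTc401, N_WTc368 and N_WTc369 and 2.86, 2.32, 3.17 and 3.31 in hypoxic F/F mice H_WTc360, H_WTc361, H_WTc341 and H_WTc348. Nfil3 was 14.8, 7.83, 38.6 and 55.8 in the former and 29.9, 22.6, 46.5 and 32.5 in the latter, and Nr1d2 was 45.1, 41.3, 19.9 and 15.4 and 38.2, 39.5, 22.9 and 29.3. Mice N_WTc397 and N_WTc401 had less Arntl and more Nr1d2 than any hypoxic F/F mouse, while N_WTc368 and N_WTc369 had more Arntl and less Nr1d2 than any of them. The time of day at which muscles were taken is not given in the sources used here, and its part in these values was not tested. The difference of the 2 hypoxia effects was -0.81 ± 0.31 (SE) for Arntl on the log2 scale and did not pass the adjusted p of the test of genotype by hypoxia.

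**Figure D4:**
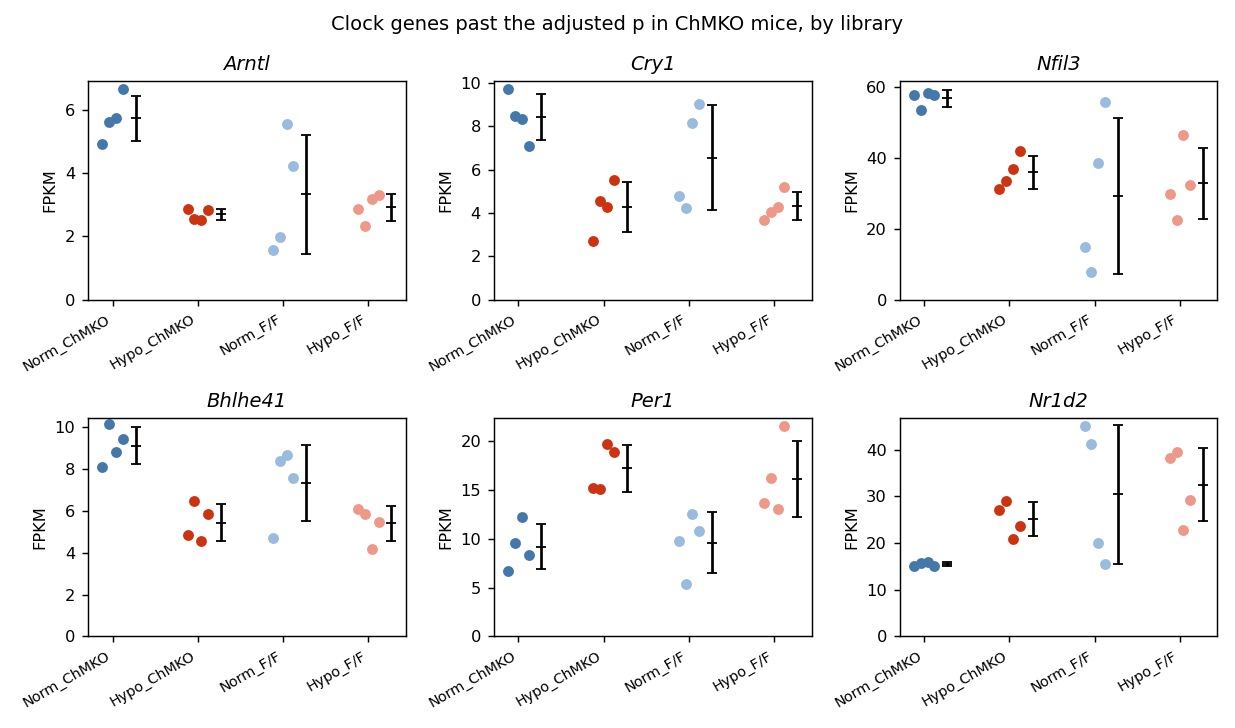
FPKM of the 6 clock genes past the adjusted p in ChMKO mice, with 1 point per library in the 4 groups and the group mean ± SD beside the points. The ChMKO groups are apart in each panel, while normoxic F/F libraries spread from 1.57 to 5.54 FPKM for Arntl.

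Genes that set muscle mass moved in part. Of 26 atrophy, FoxO and glucocorticoid target genes, 8 were higher and none lower at an unadjusted p under 0.05 (5.69% and 9.42% of all tested genes). Foxo1 and Sesn1 passed the adjusted p (0.253% of all tested genes were higher). The list median was 0.14, and it was 0.22 without H_KOc333, 0.080 without H_KOc340 and 0.087 without H_KOc345. The ubiquitin ligases of atrophy Fbxo32 (log2 fold change -0.11, adjusted p = 0.929) and Trim63 (log2 fold change -0.056, adjusted p = 0.962), chosen after their values were seen as well known members, overlapped between groups. Of 15 genes of the myostatin and IGF pathway, 6 were lower and 2 higher at an unadjusted p under 0.05 (9.42% and 5.69% of all tested genes), and Smad3, Igfbp5 and Igf1 fell past the adjusted p (0.637% of all tested genes). The lowest log2 fold change of the list was that of Mss51, a protein of muscle mitochondria, chosen after its values were seen, with 123, 91.5, 123 and 47.1 FPKM in normoxia and 5.40, 37.9, 17.5 and 64.8 in hypoxia and overlapping groups (log2 fold change -1.96 ± 0.61 (SE), adjusted p = 0.170). Smad3, which carries the myostatin and TGF-β signal, was 29.2, 36.8, 35.7 and 42.9 FPKM in normoxia and 15.1, 22.3, 20.2 and 15.4 in hypoxia (log2 fold change -0.96 ± 0.15 (SE), adjusted p = 0.0268). Igf1, the growth factor itself and chosen after its values were seen, was 4.10, 3.56, 2.34 and 3.73 FPKM in normoxia and 1.73, 2.02, 1.09 and 1.35 in hypoxia (log2 fold change -0.80, adjusted p = 0.0472). Of 12 myogenic and satellite cell genes none passed, and Myod1, the myogenic master factor, was 33.1, 13.5, 17.2 and 13.6 FPKM in normoxia and 2.34, 6.34, 5.41 and 9.23 in hypoxia, wholly lower in hypoxia (log2 fold change -1.59, adjusted p = 0.0689).

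Of the antioxidant and NRF2 target genes, Nqo1 alone fell past the adjusted p (0.637% of all tested genes did). Of 19 tested, 8 were lower and none higher at an unadjusted p under 0.05 (9.42% and 5.69% of all tested genes), with a median of -0.17, which was -0.093 without H_KOc332 and -0.31 without H_KOc340. Nqo1, a quinone reductase, was 14.1, 18.5, 23.9 and 20.2 FPKM in normoxia and 10.5, 10.9, 11.2 and 10.3 in hypoxia (log2 fold change -0.76 ± 0.14 (SE), adjusted p = 0.0395). The hypoxic mice were tightly grouped, 19.2 ± 4.07 in normoxia and 10.7 ± 0.425 in hypoxia (mean ± SD in FPKM, n = 4). Of 19 interferon response genes, 1 was higher and 3 were lower at an unadjusted p under 0.05 (5.69% and 9.42% of all tested genes), and 1 fell past the adjusted p (0.637%), Iigp1, an interferon-induced GTPase, with 1.26, 1.72, 1.12 and 1.52 FPKM in normoxia and 0.621, 0.660, 0.446 and 0.601 in hypoxia (log2 fold change -0.60 ± 0.10 (SE), adjusted p = 0.0268). None of 19 ER stress and ATF4 target genes passed, and the lowest p was that of Chac1 (log2 fold change 1.06, adjusted p = 0.284), a glutathione-degrading enzyme. None of 6 cell cycle genes passed, and the lowest p was that of Mcm6 (log2 fold change 0.18, adjusted p = 0.445).

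Markers of other cells of the muscle were read last. Of 30 genes of fibroblasts, tendon and extracellular matrix, 28 had a negative log2 fold change, as did 6221 of all 10676 tested genes. Of the 28, 11 had an unadjusted p under 0.05 (9.42% of all tested genes were lower by it). Col15a1 passed the adjusted p (0.637% of all tested genes were lower). The list's median was -0.43 and lay between -0.57 and -0.25 over the alternative settings, the latter without N_KO_370. Its summed level was 1543, 881, 1045 and 999 FPKM in normoxia and 569.7, 872, 851 and 993 in hypoxia, so the sums overlapped. In bulk muscle, fewer cells of a type and less RNA per cell cannot be told apart. Of 8 red blood cell genes 4 were higher at an unadjusted p under 0.05 (5.69% of all tested genes) and none passed the adjusted p. Their median was 0.52, and it was 0.24 with no filter on low values and 0.84 for genes averaging 5 FPKM or more. The hemoglobin chain Hba-a1 was 69.7, 71.3, 69.7 and 124 FPKM in normoxia and 157, 106, 269 and 172 in hypoxia (log2 fold change 1.03, adjusted p = 0.112), and the summed level was 281, 273, 282 and 466 FPKM in normoxia and 531, 369.3, 897 and 554 in hypoxia.

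The remaining cell types gave no called gene. Of 23 endothelial genes the lowest p was that of the apelin receptor Aplnr (log2 fold change -0.44, adjusted p = 0.267), and of 12 genes of pericytes and smooth muscle that of Pdgfrb (log2 fold change -0.24, adjusted p = 0.558). Among 22 genes of macrophages and leukocytes it was that of S100a9, of neutrophils (log2 fold change 0.87, adjusted p = 0.201), among 8 adipocyte genes that of Fabp4, a fatty acid binding protein (log2 fold change 0.32, adjusted p = 0.252), and among 10 Schwann cell genes that of Sox10, a glial factor (log2 fold change 0.30, adjusted p = 0.549).

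**Figure D5:**
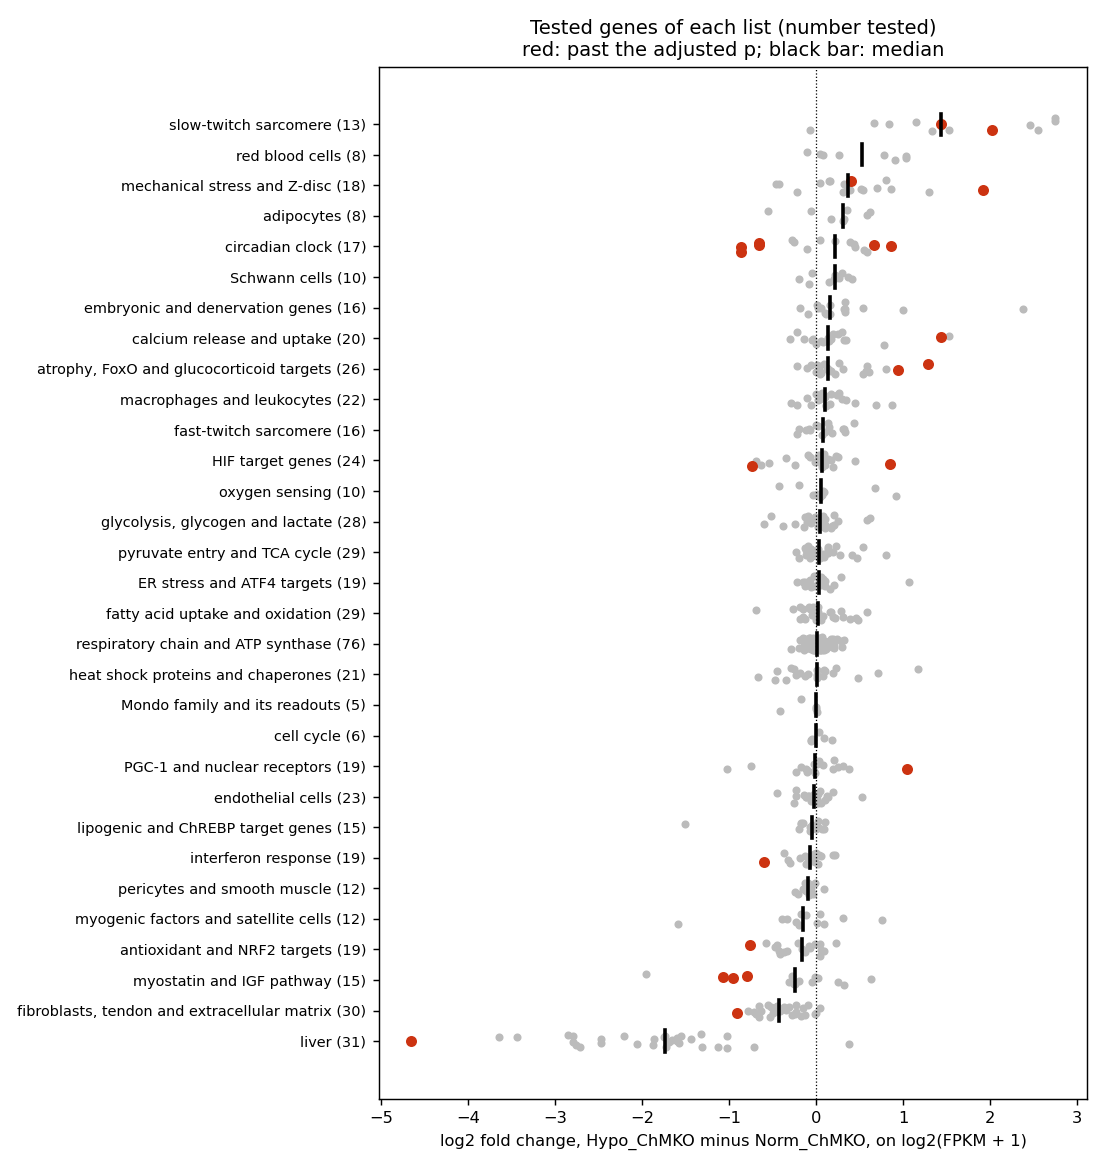
Log2 fold change (Hypo_ChMKO minus Norm_ChMKO, on log2(FPKM + 1)) of every tested gene of the 31 lists, with lists ordered by their median (black bar) and genes past the adjusted p in red. Slow-twitch genes have the highest median, 1.44, and liver genes the lowest, -1.74, and most metabolic lists lie near 0.

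To ask whether the response differed without ChREBP, the hypoxia effect was set against that in F/F mice. In F/F mice none of 10740 genes passed limma's adjusted p (0%), and 411 (3.83%) had an unadjusted p under 0.05. The median SE of a log2 fold change was 0.14 in F/F and 0.11 in ChMKO, so the F/F groups were more spread. In the test of the difference itself, genotype by hypoxia in limma over 16 libraries, none of 10751 genes passed (0%), and 132 (1.23%) had an unadjusted p under 0.05. A count past the threshold in 1 genotype and not in the other is therefore not a difference between them. Of the 95 genes called in ChMKO mice, 92 had the same sign in F/F mice (96.8%), beside 71.8% of the 10460 genes tested in both.

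Leading genes of the ChMKO response had these F/F values. The log2 fold change was 1.67 in F/F for Csrp3, 1.295 for Ankrd2, 0.70 for Foxo1 and 0.48 for Ak4, and -1.12 for 1700001O22Rik, -0.83 for Hr and -0.68 for Igfbp5. Over the 12 leading genes in each direction the F/F values ran from 0.27 (Cep85l) to 1.67 (Csrp3) for those that rose in ChMKO mice and from -1.43 (Slc25a30) to -0.17 (Arrdc3) for those that fell. The smallest in F/F were those of Arrdc3, Hoxa11 (-0.23), Cep85l, Galnt15 (0.32) and Klf10 (-0.32), beside ChMKO values of -1.13, -1.02, 1.13, 1.15 and -1.13. These genes were chosen by their ChMKO values, so the choice alone favors larger changes in ChMKO than in F/F. Slow-twitch genes had a median of 1.21 in F/F, beside 1.44 in ChMKO, and Myh7 had 2.26 in F/F. The difference between genotypes was 0.48 ± 1.19 (SE) for Myh7 and 0.62 ± 0.74 (SE) for Ankrd2. The lowest p of the difference was that of Col22a1, a collagen of the myotendinous junction, which was 3.23, 3.74, 3.72 and 3.43 FPKM in normoxia and 2.77, 2.39, 2.95 and 2.22 in hypoxia for ChMKO and 1.99, 2.095, 2.58 and 3.01 in normoxia and 3.10, 2.69, 3.31 and 3.32 in hypoxia for F/F. The F/F groups overlapped and the ChMKO groups did not, with a difference of -0.61 ± 0.14 (SE) on the log2 scale. The next lowest were Layn, Cyp2j6, Hspb11, Zfp36l2 and Gabrr1, with differences of 0.47 ± 0.13 (SE), 0.43 ± 0.12 (SE), -0.44 ± 0.13 (SE), 0.84 ± 0.26 (SE) and 0.61 ± 0.19 (SE). The adjusted p was 1.00 for each of the 6, so none is shown to differ. Hspb11 fell in ChMKO mice past the adjusted p (log2 fold change -0.51 ± 0.09 (SE), adjusted p = 0.0363), with 1.65, 1.68, 1.56 and 1.87 FPKM in normoxia and 0.748, 1.06, 0.746 and 1.01 in hypoxia.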

How the data were processed

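GC muscle RNA of 4 Norm_ChMKO and 4 Hypo_ChMKO mice was sequenced, and the authors deposited FPKM per gene for these and 16 other libraries. Per the submitters' notes the tools were fastp 0.18.0, Bowtie2 2.2.8, HISAT2 2.1.0, StringTie 1.3.1 and RSEM with GRCm39. FPKM is scaled to each library's total, so a few abundant genes shift all others. Of 21959 entries, the one of highest mean was kept per symbol, leaving 21936. Whole reads were recovered from FPKM and gene length for voom, an alternative only, which called 105 genes (88 of them shared with the main test). Recovered values differed from a whole read by a relative 3.76e-07 at most.

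Genes averaging 0.5 FPKM or more over the 8 libraries were tested on log2(FPKM + 1) with limma 3.58.1 (trend, two-sided, Benjamini-Hochberg over all genes tested) in R 4.3.3. The fold change understates that of low genes. F/F mice and genotype by hypoxia were fitted likewise. On simulated data of the ChMKO comparison, on 10676 genes, 93% of genes changed by a log2 of 1 and 100% of those changed by 2 were called, with 11 unchanged genes called. The changed genes were drawn only from those averaging at least 2 FPKM, and noise was drawn separately for each gene and library. The recovery therefore does not hold for lower genes or for variation that genes share within a mouse. Depth differed little between libraries, and the spread between mice sets the precision.

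The members and the 31 lists were chosen with earlier results of these data known. Named genes are the 12 that rose and 12 that fell most among called genes without overlap (liver left out), the called members of lowest p in each list (or the 1 of lowest p), fiber and Mondo family genes, 4 liver genes and the 6 of lowest p in genotype by hypoxia. Others are said to be chosen later, and some genes are not reported here. Alternatives were another pseudocount, filters, rescaling, a fit on 24 libraries, voom, no trend and each library left out.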

Additional observations from a re-analysis of the deposited data

Results flagged for a closer look

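In 9 of 174 groups of 4 libraries examined, 1 library lay apart from the other 3 by more than Dixon's 95% limit for the gap over the range, and chance gives about 1 in 20. N_KO_380 accounts for 5 of the 9, and Hba-a1 and the red blood cell sum among these are not independent, since the sum contains Hba-a1. In this library Mup7 was 217 FPKM beside 14.2 to 22.6 in the other normoxic ChMKO mice, Hba-a1 was 124 beside 69.7 to 71.3, the summed red blood cell list was 466 beside 273 to 282, Cep85l was 1.89 beside 3.85 to 4.29, and Mlx was 4.49 beside 5.47 to 5.61. In normoxic library N_KO_374 Klf10 was 19.9 FPKM beside 10.9 to 11.8, and Nfil3 was 53.5 beside 57.7 to 58.4. In hypoxic library H_KOc340 Aplnr was 3.04 FPKM beside 1.43 to 1.60, and Sox10 was 1.90 beside 0.6747 to 0.82905. No explanation of these was tested.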

How the results depend on the processing

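The direction of all 95 called genes was kept under every alternative run for them, but the number past the adjusted p was not. It was 6 (1 higher, 5 lower) with no filter on low values, 166 (72 higher) with libraries rescaled by the median ratio and 213 (54 higher, 159 lower) in the fit on 24 libraries. Leaving out 1 library gave between 10 and 129 genes, with 1 to 47 higher and 9 to 86 lower, and 7 genes passed in all 8 such fits, which have fewer mice. Other causes were not tested. By the limits of the study, applied to the fits here and not to its DESeq2 test, 107 genes became 200 with a pseudocount of 0.1, 60 at a mean of at least 5 FPKM and 212 with voom, and 75 to 126 with 1 library left out. In F/F mice the count was 0, and 0 to 1 with 1 library left out. It was 0 in each fit of genotype by hypoxia. The first component kept the groups apart without the liver list (33.0% of the variance) and at a mean of at least 5 FPKM (41.4%), but its exact p of 0.0286 is the smallest that 4 and 4 libraries can give, and so says nothing of stability. Under rescaling the log2 fold changes of Tnni2, Mlxip and Mlx became 0.0299, 0.0276 and 0.0214. With 1 library left out Myh1 ranged from -0.15 to 0.24, Tnni2 from -0.0375 to 0.0328, Tnnt3 from -0.0293 to 0.0641, Mlxip from -0.0766 to 0.0905, Mlx from -0.0812 to 0.12 and Txnip from -0.0846 to 0.14, none of them called. No paired analysis was possible because the normoxic and hypoxic mice share no replicate numbers.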
